A study of Mus musculus with 46 samples.

Results

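Haem breakdown and iron handling are described here through 9 genes, taken by name from the 46264 gene symbols of the expression table. Hmox1, Blvra and Blvrb break down haem, Fth1 and Ftl1 code the ferritin chains, and Slc40a1 exports iron. Tfrc takes iron up, and Slc11a1 and Slc11a2 move it out of phagosomes and endosomes. All 9 were in the table, and all 9 passed the filter on low counts in every comparison. Bulk RNA was sequenced from mice in a series on intravenous immunoglobulin (IVIG, pooled antibody given into a vein). Its mouse model is of mucous membrane pemphigoid driven by antibodies to laminin 332, in which mucosa and skin blister. The labels give blood (5 libraries with IVIG and 5 with phosphate-buffered saline, PBS), neutrophils (5 and 5), monocytes (3 and 5) and skin (3 and 3). A separate experiment labelled Ics had 4 libraries each at 0 h, titled unstimulated, and at 3 h and 6 h, titled stimulated. It had no unstimulated library at 3 h or 6 h, so stimulation and elapsed time cannot be told apart. The labels neither expand Ics nor name its cells, and they give no strain, age or sex. The protocol in the labels names bone marrow as the source of neutrophils and monocytes.

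Haem oxygenase opens the haem ring and frees iron, carbon monoxide and biliverdin, which biliverdin reductases turn into bilirubin. Freed iron is stored in ferritin, a shell of heavy chains, which oxidise iron, and light chains, or it leaves the cell through ferroportin. Neutrophils and macrophages meet haem when they engulf red cells, and they also move iron away from microbes they have taken up.

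Part of this system is controlled on the messenger RNA itself, through a hairpin called the iron responsive element, which iron regulatory proteins bind when iron is scarce. In a 5′ untranslated region the bound hairpin blocks translation, and in a 3′ untranslated region it protects the message from decay. The hairpins of the members are shown because a transcript level cannot by itself report the protein of a gene that carries one. A C, 5 stem bases, the loop CAGTGN and 5 bases pairing with the stem, with G-T pairs allowed, were searched on the sense strand of GENCODE vM21 transcripts (GRCm38). This pattern was found in the 5′ region of Fth1 (chr19:9982732-9982761, plus strand), Ftl1 (chr7:45459778-45459807, minus strand) and Slc40a1 (chr1:45925464-45925493, minus strand). Tfrc holds 4 matches in its 3′ region on the plus strand, at chr16:32631219-32631248, chr16:32631598-32631627, chr16:32631663-32631692 and chr16:32631710-32631739. The sites are written 5′ to 3′ as 30 bases of DNA letters, with the loop in capitals.
Fth1: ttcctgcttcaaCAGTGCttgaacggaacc
Ftl1: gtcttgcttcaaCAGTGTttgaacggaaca
Slc40a1: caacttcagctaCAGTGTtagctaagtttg
Tfrc site 1: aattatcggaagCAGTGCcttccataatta
Tfrc site 2: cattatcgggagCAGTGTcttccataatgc
Tfrc site 3: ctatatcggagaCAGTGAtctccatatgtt
Tfrc site 4: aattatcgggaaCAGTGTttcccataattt
The pattern occurred in the 5′ region of 28 of 20529 genes (0.136%) and in the 3′ region of 127 of 20903 genes (0.608%). The other 5 members held no match, which says only that these letters are not in their annotated untranslated regions. A hairpin with an extra bulge or a mismatch in those 5 pairs would be missed. The search therefore does not show that these members lack such control.

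Library totals were 24827600 to 29502800 estimated counts in Ics and 18965400 to 43176500 in the tissues. The Ics libraries carried neutrophil markers throughout: 10 such genes, among them S100a8, S100a9 and Ly6g, summed to between 84135 and 90018 CPM (estimated counts scaled to a fixed library total) at 0 h, 75629 to 89698 at 3 h and 59616 to 65456 at 6 h. The skin keratin genes Krt5, Krt14 and Krt1 were at 0 in all 12. Of the 34 tissue libraries, 9 carried the markers of another tissue than their label. Tests among tissues are therefore given both for all libraries as labelled and for the 25 that match. Monocyte was the class left when no other limit was passed, so no monocyte marker was needed to match. Csf1r, a monocyte and macrophage gene, ran from 25.4 to 864.5 CPM in that class, beside 154.7 to 282.8 in libraries with neutrophil markers. Replicate 3 of monocyte PBS was the lowest, and also held the lowest matching monocyte values of Fth1 and Ftl1. Haemoglobin genes made up 89.2 to 98.3% of counts in the 10 libraries with blood markers, and 2 of these are labelled neutrophil and 2 skin. Titles of tissue libraries carry a prefix (S2, S3 or S5) and a number, and the labels do not say what either stands for. All 6 skin libraries have S5 and 8 of 10 blood libraries S3, while neutrophils (7 S3, 2 S5, 1 S2) and monocytes (3 S3, 4 S5, 1 S2) are mixed. A prefix and number recurs in more than 1 tissue in 12 cases, 3 of them with IVIG in one tissue and PBS in another, so libraries could not be assigned to animals. If tissues came from the same animals, the tests among tissues treat related libraries as independent. P-values measure the spread between libraries, which may be technical.

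In the Ics experiment, 7 of the 9 members rose and 1 fell between 0 h and 3 h by the quasi-likelihood F test of edgeR (adjusted p under 0.05 over all genes tested). Of all 14996 genes tested, 26.9% rose and 27.5% fell. Between 0 h and 6 h, 8 members rose and 1 fell, beside 29.6% and 30.4% of all genes. From 3 h to 6 h, 6 rose and none fell, beside 20.5% and 20.3%. The median log2 change of the members was 1.34, 1.91 and 0.65 in these comparisons, and that of all genes tested was -0.06, -0.06 and -0.03. At 3 h all 4 libraries lay above all 4 at 0 h for 7 members and below for 1, beside 24.8% and 24.9% of all genes tested. At 6 h they lay above for 7 members and below for 0, beside 27.7% and 27.6%. The 6 h libraries lay above all 3 h libraries for 6 members and below for 0, beside 18.9% and 18.3%. In bulk libraries fewer cells of a type and less RNA per cell cannot be told apart. The 3 h and 6 h comparisons share the 0 h libraries.

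**Figure D1:**
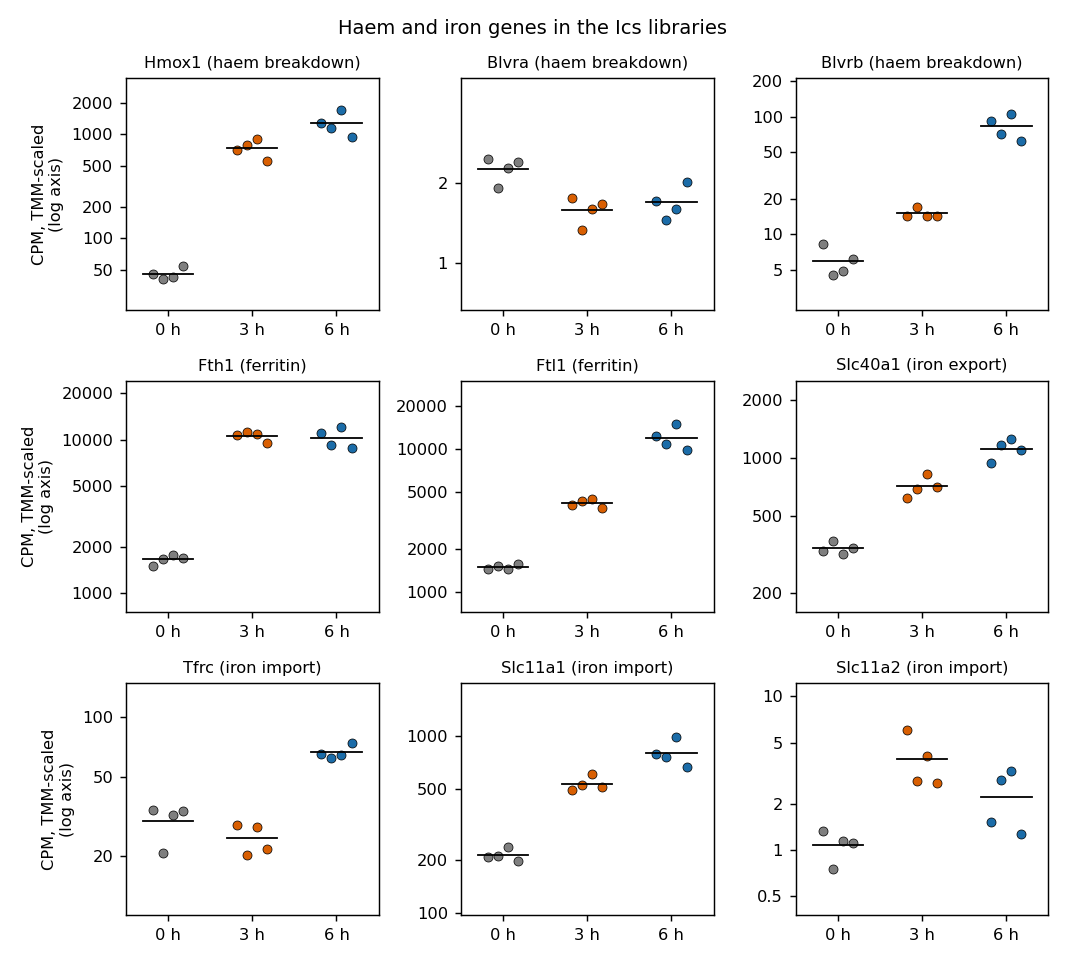
CPM (TMM-scaled, log axis, different range in each panel) of the 9 genes in each Ics library at 0 h, 3 h and 6 h. Points are libraries and bars their means (n = 4 per time). Hmox1 moves from 40.98 to 54.4 CPM at 0 h up to 943 to 1727 CPM at 6 h, while Blvra stays between 1.33 and 2.46 CPM.

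Hmox1 (chromosome 8, 75093621 to 75100589), the inducible haem oxygenase, changed most of the 9. In CPM scaled by TMM factors it stood at 45.3, 40.98, 42.7 and 54.4 in the 4 libraries at 0 h, at 703, 796, 896 and 554 at 3 h, and at 1283, 1149, 1727 and 943 at 6 h. The 3 times did not overlap. Its rise was 4.01 ± 0.19 on the log2 scale at 3 h (SE, n = 4 and 4, edgeR adjusted p = 3.15e-10) and 4.80 ± 0.20 at 6 h (adjusted p = 8.46e-11). A further rise of 0.79 ± 0.17 separated 6 h from 3 h (adjusted p = 0.00173). Hmox2, the constitutive haem oxygenase, went from 25.9 ± 1.33 CPM (SD, n = 4) to 32.8 ± 2.40 and 106 ± 9.86 CPM. It rose by 0.34 ± 0.076 at 3 h and by 2.04 ± 0.076 at 6 h.

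The biliverdin reductase genes went opposite ways. Blvrb (chromosome 7, 27447978 to 27466144), which codes the enzyme also known as flavin reductase, stood at 8.33, 4.54, 4.91 and 6.14 CPM at 0 h, at 14.4, 17.2, 14.4 and 14.2 at 3 h, and at 91.3, 71.8, 106 and 61.9 at 6 h. Each time lay wholly above the one before. Its rise was 1.33 ± 0.19 at 3 h (adjusted p = 4.10e-05) and 3.78 ± 0.20 at 6 h (adjusted p = 8.63e-10). Most of that came after 3 h, where it rose by 2.46 ± 0.18 (adjusted p = 1.32e-07).

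Blvra (chromosome 2, 127070665 to 127097084), the main biliverdin reductase of adult tissues, was low in all 12 libraries. It read 2.46, 1.91, 2.26 and 2.39 CPM at 0 h, 1.74, 1.33, 1.60 and 1.66 at 3 h, and 1.71, 1.45, 1.60 and 2.00 at 6 h. All 3 h libraries lay below all 0 h libraries, whereas 6 h overlapped with both. Its log2 change was -0.51 ± 0.17 at 3 h (adjusted p = 0.0223) and -0.42 ± 0.17 at 6 h (adjusted p = 0.0498). Both calls sat near the limit: DESeq2 gave adjusted p = 0.0589 at 3 h and 0.151 at 6 h. The 3 h call was lost without replicate 1 or 4 of 0 h or replicate 2 of 3 h (adjusted p = 0.0561, 0.0507 and 0.0676). At 6 h it was lost under 9 of the 12 single omissions, with adjusted p between 0.0687 and 0.160.

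**Figure D2:**
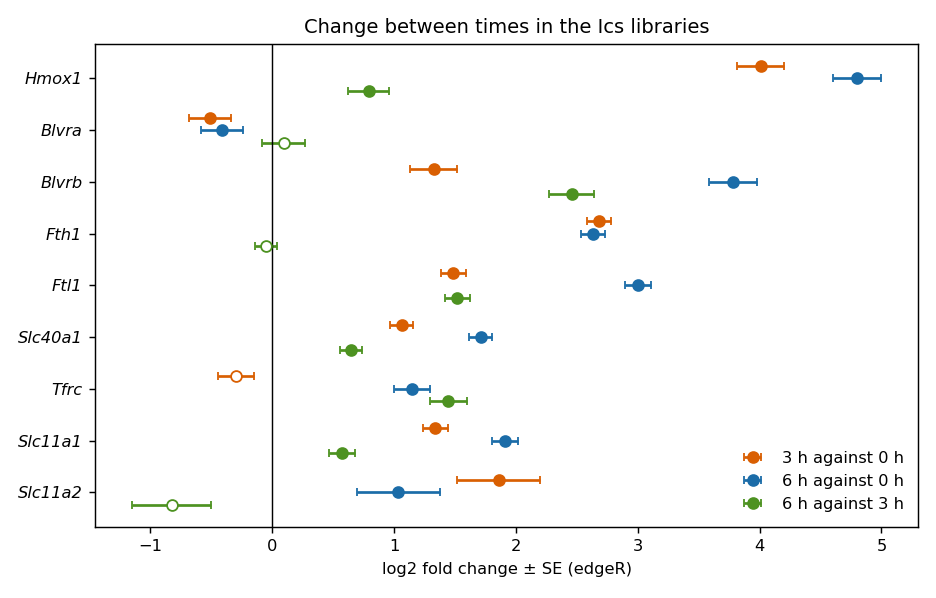
Log2 fold change (x axis) of each gene between times in the Ics libraries, with its SE as a bar (edgeR, n = 4 per time). Filled points passed adjusted p under 0.05 and open points did not. Fth1 shows no call from 3 h to 6 h, and Tfrc rose only in the comparisons with 6 h.

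The ferritin chains rose on different schedules. Fth1 (chromosome 19, 9980598 to 9985098), the heavy chain, was at 1491, 1665, 1764 and 1696 CPM at 0 h, at 10703, 11280, 10929 and 9535 at 3 h, and at 11001, 9167, 12064 and 8771 at 6 h. It rose by 2.68 ± 0.099 at 3 h (adjusted p = 2.91e-11) and by 2.63 ± 0.099 at 6 h (adjusted p = 3.11e-11), and the 3 h and 6 h libraries then overlapped (-0.05 ± 0.093, adjusted p = 0.705). Ftl1 (chromosome 7, 45457944 to 45459884), the light chain, was at 1452, 1511, 1434 and 1566 CPM, then at 4049, 4329, 4431 and 3886, then at 12225, 10765, 14962 and 9867. No 2 times overlapped for Ftl1. It rose by 1.49 ± 0.10 at 3 h (adjusted p = 1.39e-08), by 3.00 ± 0.11 at 6 h (adjusted p = 1.94e-11) and by 1.52 ± 0.10 from 3 h to 6 h (adjusted p = 4.60e-08).

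The ratio of Fth1 to Ftl1 counts therefore went up and then down. It was 1.03, 1.10, 1.23 and 1.08 at 0 h, 2.64, 2.61, 2.47 and 2.45 at 3 h, and 0.900, 0.852, 0.806 and 0.889 at 6 h. The 3 times did not overlap, and each pair of times differed by an exact two-sided permutation test over libraries (p = 0.0286, the smallest that 70 splits allow, and 0.0286 after Benjamini-Hochberg adjustment over 3 comparisons). This test was chosen after the values were seen. On the log2 scale the difference was 1.20 at 3 h and -0.36 at 6 h against 0 h. Together the chains took 0.345 ± 0.0117% of all counts at 0 h (SD, n = 4), 1.37 ± 0.0809% at 3 h and 2.17 ± 0.319% at 6 h. Both genes have processed pseudogenes, and the pseudogene rows held at most 0.131% of the Fth1 count and 0.629% of the Ftl1 count. Summing them in changed neither direction nor call.

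**Figure D3:**
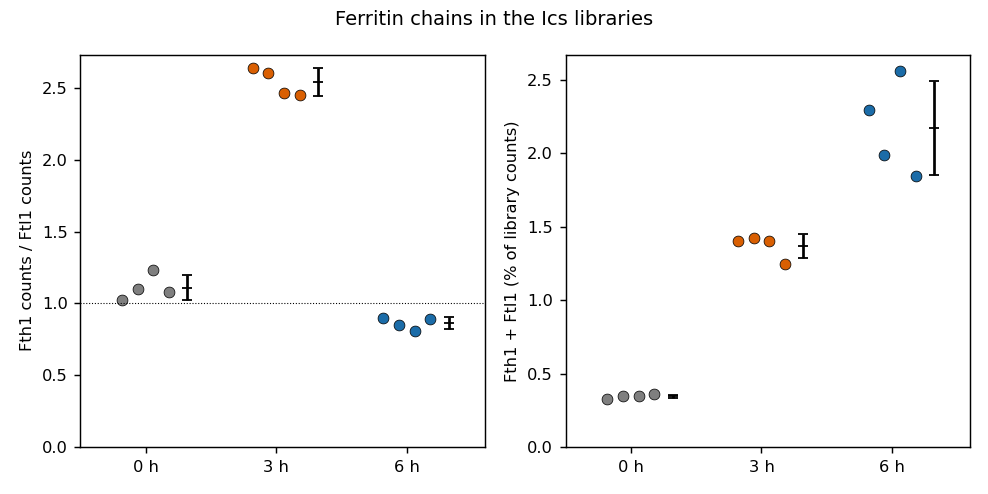
Ratio of Fth1 to Ftl1 estimated counts (left, dotted line at equal counts) and the share of both in the library's counts in percent (right) at 0 h, 3 h and 6 h. Points are Ics libraries, with mean and SD beside them (n = 4). The ratio is 2.45 to 2.64 at 3 h and below 1 at 6 h, while the share goes on up to 2.17% on average.

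Slc40a1 (chromosome 1, 45908068 to 45926523), which codes ferroportin, the iron exporter, was at 332, 372, 319 and 344 CPM at 0 h, at 623, 690, 830 and 712 at 3 h, and at 949, 1173, 1252 and 1099 at 6 h. No 2 times overlapped. The rise was 1.06 ± 0.093 at 3 h (adjusted p = 2.12e-07), 1.71 ± 0.095 at 6 h (adjusted p = 1.51e-09) and 0.65 ± 0.093 between them. Ferroportin is best known from macrophages that recycle red cells. In these libraries 10 tissue macrophage markers summed to 15.7 to 19.3 CPM at 0 h, 27.7 to 42.7 at 3 h and 12.9 to 23.5 at 6 h, with C1qa, C1qb and Cd5l at 0 in every 6 h library. The broader monocyte and macrophage markers summed to 725 to 790, 993 to 1036 and 905 to 1023 CPM, yet most of the 10 fell: 3 rose and 7 fell at 3 h, and 2 rose and 6 fell at 6 h. Adgre1, which codes the macrophage antigen F4/80, and Csf1r, the receptor for macrophage growth factor, rose at both times (2.55 and 1.65 on the log2 scale at 3 h). Ccr2, F13a1, Irf8 and Klf4 fell at both. The part of these cells in the result was not tested.

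Tfrc, Slc11a1 and Slc11a2, grouped here as iron import, followed 3 different courses. Tfrc (chromosome 16, 32608920 to 32632794), the receptor for transferrin-bound iron, stood at 33.8, 20.6, 32.1 and 33.7 CPM at 0 h, at 28.6, 20.0, 27.7 and 21.5 at 3 h, and at 65.3, 62.4, 64.3 and 74.4 at 6 h. The 0 h and 3 h libraries overlapped and all 6 h libraries lay above both. It rose by 1.15 ± 0.15 between 0 h and 6 h (adjusted p = 1.10e-05) and by 1.44 ± 0.15 between 3 h and 6 h (adjusted p = 3.22e-06). At 3 h it did not pass (-0.30 ± 0.15, adjusted p = 0.111). Without replicate 2 of 0 h the 3 h value was -0.44 (adjusted p = 0.00589), and with library totals in place of TMM scaling it was -0.54 (adjusted p = 0.00808).

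Slc11a1 (chromosome 1, 74375195 to 74386062) codes the phagosome transporter that moves iron and manganese away from engulfed microbes. It was at 207, 211, 236 and 196 CPM, then at 496, 529, 612 and 513, then at 786, 758, 987 and 667, with no overlap between times. It rose by 1.34 ± 0.11 at 3 h (adjusted p = 6.64e-08), by 1.91 ± 0.11 at 6 h (adjusted p = 1.68e-09) and by 0.57 ± 0.10 between them. Its relative Slc11a2 (chromosome 15, 100387898 to 100425072), which carries iron out of endosomes, was scarce at 1.33, 0.751, 1.13 and 1.10 CPM at 0 h, at 6.09, 2.82, 4.06 and 2.74 at 3 h, and at 1.51, 2.84, 3.27 and 1.28 at 6 h. The 3 h libraries all exceeded the 0 h libraries, and 6 h overlapped with both. Slc11a2 rose by 1.86 ± 0.34 at 3 h (adjusted p = 0.000310) and by 1.04 ± 0.34 at 6 h (adjusted p = 0.0177). The 6 h call was lost without replicate 2 of 0 h (adjusted p = 0.0530) or replicate 3 of 6 h (adjusted p = 0.0677). Its later value, -0.82 ± 0.32 from 3 h to 6 h, did not pass (adjusted p = 0.0550), but passed without replicate 2 or 4 of 3 h or replicate 3 of 6 h (adjusted p = 0.0416, 0.0415 and 0.0247).

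Per kilobase of transcript, the ferritin genes stood highest of the 9 at every time. Fth1 was at 1781 ± 125 and Ftl1 at 1540 ± 62.1 CPM per kilobase at 0 h (SD, n = 4). Slc40a1 at 101 ± 6.70 and Slc11a1 at 91.8 ± 7.32 followed, then Hmox1 at 29.2 ± 3.81. At 3 h Hmox1 already came next after ferritin, at 470 ± 92.7, and it did so at 6 h, at 813 ± 211. Slc11a2 was the lowest at each time, at 0.356 ± 0.0790 at 0 h and 0.735 ± 0.324 at 6 h.

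Red cell precursors also express Blvrb, Tfrc and ferritin, so erythroid genes were read beside them. All 9 tested erythroid markers fell at 3 h and at 6 h. Their summed level, haemoglobin genes included, was 109 to 274 CPM at 0 h, 19.4 to 55.8 at 3 h and 9.15 to 21.0 at 6 h. The part of red cell precursors in the levels of Blvrb, Tfrc and ferritin was not tested. Platelet markers summed to 23.8 to 32.8 CPM at 0 h and 6.13 to 10.9 at 6 h, with 5 of 6 falling.

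Most regulators that respond to haem and to oxidants rose against 0 h. Of 10 tested, 6 rose and 1 fell at 3 h, and 8 rose and 2 fell at 6 h. From 3 h to 6 h, 4 rose and 1 fell, with a median log2 change of 0.08 beside 0.65 for the members. Against 0 h their median log2 change was 1.36 at 3 h and 1.34 at 6 h, against -0.06 over all genes tested at both times. Bach1, the repressor of Hmox1 that haem releases, went from 172 ± 10.1 to 524 ± 35.3 and 626 ± 46.01 CPM, a rise of 1.61 ± 0.067 at 3 h and 1.87 ± 0.067 at 6 h. Nfe2l2, the activator that competes with it, rose by 1.68 ± 0.079 and 1.62 ± 0.078. Mafg, a small partner of both, rose by 1.40 ± 0.074 and 1.85 ± 0.075, and Hif1a, a regulator of the response to low oxygen, by 1.49 ± 0.086 and 1.27 ± 0.085. Maff, another small Maf gene, rose by 2.98 ± 0.19 at 3 h and by 1.40 ± 0.19 at 6 h against 0 h. From 3 h to 6 h it fell by 1.58 on the log2 scale (SE 0.18).

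Other genes of haem and iron handling were mixed. Of 8 tested genes that carry or bind haem or haemoglobin, 4 rose and 2 fell at each of 3 h and 6 h. Slc48a1, which carries haem out of the phagolysosome, went from 38.3 ± 3.89 to 73.5 ± 10.0 and 155 ± 32.7 CPM and rose by 0.94 ± 0.13 and 2.02 ± 0.14. Lrp1, the receptor for haem bound to hemopexin, rose by 2.95 ± 0.28 and 1.78 ± 0.27. Hp, which codes haptoglobin, the plasma binder of free haemoglobin, fell by 0.88 and then 1.00 on the log2 scale against 0 h. Of 12 tested genes of iron uptake and transport, 2 rose and 5 fell at 3 h, and 2 rose and 7 fell at 6 h. Ltf, the granule protein lactoferrin, dropped by 1.13 on the log2 scale at 6 h, Lcn2, which binds bacterial siderophores, by 0.69, and the ferrireductase gene Steap4 by 3.23. Mcoln1, a channel that releases iron from lysosomes, rose by 1.23 ± 0.10 at 6 h. The median of these 12 was -0.30 at 3 h and -0.91 at 6 h.

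Among 8 genes of iron storage and sensing, 3 rose and 3 fell at 3 h, and 5 rose and 3 fell at 6 h. Ncoa4, the receptor that delivers ferritin to the lysosome, went from 467 ± 17.1 to 273 ± 10.1 and 217 ± 18.5 CPM. It fell by 0.77 and then 1.10 on the log2 scale against 0 h, while both ferritin chains rose. Smad7, an inhibitor of the signalling that drives hepcidin in liver, rose by 1.69 ± 0.10 at 3 h. Ireb2, which codes an iron regulatory protein that binds the hairpins above, rose by 0.53 ± 0.048 and 0.55 ± 0.048. Fbxl5, which marks that protein for degradation when iron is plentiful, went from 586 ± 39.5 to 353 ± 27.6 and then 852 ± 60.9 CPM. It fell by 0.73 at 3 h and rose by 1.27 ± 0.070 from 3 h to 6 h. Aco1, which codes the other iron regulatory protein, went the opposite way to Ireb2. Its log2 change against 0 h was -2.21 ± 0.24 at 3 h and -1.31 ± 0.23 at 6 h. Of 9 haem synthesis genes, 7 fell at 3 h and 8 at 6 h. Uros did not pass at 3 h (-0.64 ± 0.28, adjusted p = 0.0687) and fell at 6 h. Alas1 alone rose, the first enzyme in cells other than red cell precursors, which went from 107 ± 12.8 to 540 ± 36.4 and 323 ± 65.7 CPM and rose by 2.34 ± 0.13 and 1.60 ± 0.12.

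The courses of the members were also compared with those of 8312 genes of mean CPM of at least 5, as correlations of log2(CPM + 1) over the 12 libraries. Correlations are a description, since libraries of a time share whatever sets them apart from the other times. The closest to Hmox1 were Clec4d, Atp6v1e1 and Il36g (each r = 0.998). Closest to Fth1 were Nfe2l2, Gadd45b and Acsl5 (each r = 0.998). Ftl1 was closest to Bax, Gsk3a and Ctsd (r = 0.997 to 0.999), and Blvrb to Sod1, Jade3 and Dnajc7 (r = 0.992 to 0.994). Slc40a1 ran nearest to Smcr8, Arfgef2 and Arhgap31, and Slc11a1 to Sirt2, Treml4 and Tapt1, with r from 0.992 to 0.996. The matches were looser for Tfrc (Kcnj2, Anapc16 and Gm35339, r = 0.954 to 0.958), Blvra (Gm46430, Urod and Bcas2, r = 0.923 to 0.940) and Slc11a2 (Nbn, Stat5a and Mtpap, r = 0.916 to 0.925).

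Across blood, neutrophils, monocytes and skin, levels are given as CPM after haemoglobin rows were taken out, because these rows fill most of each blood library. In the fit of all 34 libraries as labelled, 5 of 9 members differed among the tissues (Blvrb, Fth1, Ftl1, Slc40a1 and Slc11a2), close to the 49.9% of all 19088 genes tested that did. In the 25 libraries whose markers match their label, 8 of 9 differed, beside 76.0% of 19511 genes, and Tfrc did not (adjusted p = 0.597). As labelled, Blvrb lost its call without replicate 1 or 3 of monocyte IVIG (adjusted p = 0.0752 and 0.0692). Slc11a1 gained one without replicate 3 of blood IVIG (adjusted p = 0.0138). Blvra gained one without that library (adjusted p = 0.0117), replicate 2 of blood PBS (0.0470) or replicate 1 of skin PBS (0.0383), and also with DESeq2 (0.0168) or RLE scaling (0.0371). With library totals in place of TMM scaling, Blvrb, Fth1, Ftl1 and Slc11a2 lost theirs (adjusted p = 0.269 to 0.843). Between pairs of tissues as labelled, members passed in 2 of 9 cases for blood against neutrophils (26.3% of all genes), 4 for blood against monocytes (31.6%), 0 for blood against skin (0.0%, with 137 genes by DESeq2), 2 for neutrophils against monocytes (7.36%), 4 for neutrophils against skin (1 higher beside 13.5% and 3 lower beside 27.5%) and 4 for monocytes against skin (39.4%). In matching libraries these counts were 8 (38.4%), 7 (37.5%), 6 (50.2%), 2 (23.4%), 5 (58.8%) and 5 (51.9%). Fits with the title prefix as a term were added after the data were seen. They changed no member's call in the test over all tissues, as labelled or in matching libraries. Between pairs of tissues as labelled they took 4 of the calls away: Blvrb, Ftl1 and Slc11a2 in blood against monocytes (adjusted p = 0.0607, 0.0569 and 0.101) and Ftl1 in neutrophils against skin (0.113). In matching libraries they took 3 away: Fth1 and Slc11a1 in blood against skin (0.271 and 0.0699) and Blvrb in monocytes against skin (0.0892). All matching blood libraries have S3 and all skin libraries S5, so that pair shares no prefix and its value in these fits rests on the other tissues. The tests that follow are from the 25 matching libraries unless stated, and single omissions were not repeated on that smaller set.

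**Figure D4:**
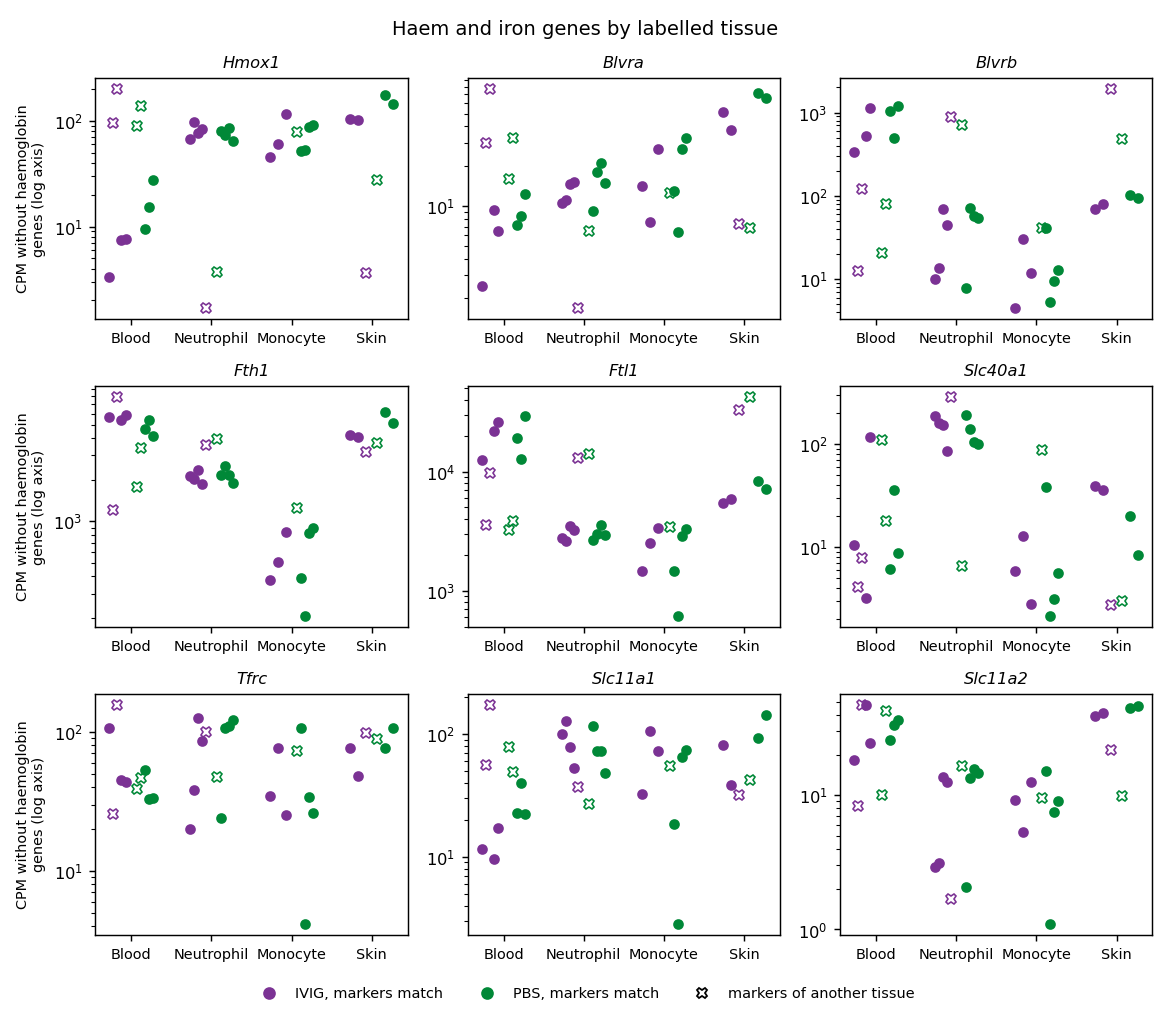
CPM without haemoglobin genes (log axis) of each gene in the 34 libraries, by labelled tissue and treatment. Filled points are libraries whose markers match the label (6 blood, 8 neutrophil, 7 monocyte, 4 skin) and open crosses the 9 that carry markers of another tissue. The matching neutrophil libraries hold Slc40a1 at 85.9 to 192 CPM, above all matching monocyte and skin libraries.

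Slc40a1 was highest in the neutrophil libraries. The lowest, median and highest of 8 were 85.9, 146 and 192 CPM, against 2.10, 5.56 and 38.5 in 7 monocyte libraries. In skin, 4 libraries read 38.7, 35.8, 19.8 and 8.24, and blood ran from 3.18 over a median of 9.59 to 117. Libraries with blood markers and another label were at 284 CPM (replicate 5 of neutrophil IVIG), 6.46, 2.73 and 2.94. Matching neutrophil libraries did not overlap with matching monocytes or skin. They overlapped with matching blood through 1 library, replicate 5 of blood IVIG. The log2 difference was 3.66 ± 0.74 over monocytes (SE, n = 8 and 7, edgeR adjusted p = 0.000793) and 3.04 ± 0.88 over skin (adjusted p = 0.00527). As labelled the first value was 3.23 ± 0.89 (adjusted p = 0.0258) and was lost without any 1 of the 3 monocyte IVIG libraries (adjusted p = 0.0570 to 0.0801). The other was 3.41 ± 0.97 (adjusted p = 0.00606) and held under every single omission. With library totals in place of TMM scaling neither passed (adjusted p = 0.554 and 0.105). Blood differed from neutrophils by -2.23 ± 0.73 for Slc40a1 (adjusted p = 0.0171), and by -2.13 ± 0.74 as labelled (adjusted p = 0.0336). That labelled call was lost under several single omissions of blood or neutrophil libraries (adjusted p = 0.0537 to 0.0965). No pair among blood, monocytes and skin passed for Slc40a1 (adjusted p = 0.124 to 0.523). With the title prefix as a term, blood exceeded monocytes by 3.27 ± 0.83 (adjusted p = 0.00384, from 1.43 without it) and skin by 3.28 ± 1.06 (0.0221, from 0.81). Neutrophils then exceeded monocytes by 5.09 ± 0.77 and skin by 5.10 ± 1.01.

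With haemoglobin rows left out, ferritin was high in blood and low in monocytes. As a share of all counts the order differed. Both chains together then took 0.134 to 0.294% in blood, 0.466 to 0.585% in neutrophils, 0.0815 to 0.419% in monocytes and 0.967 to 1.45% in skin. Fth1 had its lowest, median and highest values at 4160, 5400 and 5886 CPM in blood and at 205, 509 and 888 in monocytes. Neutrophils lay between, at 1859, 2145 and 2490, and the 4 skin libraries at 4234, 4082, 6214 and 5112. Only blood and skin overlapped. Blood exceeded monocytes by 3.13 ± 0.21 (adjusted p = 6.58e-11) and neutrophils exceeded monocytes by 1.76 ± 0.19 (adjusted p = 6.30e-07). As labelled these were 2.74 ± 0.40 (adjusted p = 0.000678) and 1.96 ± 0.38 (adjusted p = 0.00339), calls that library totals in place of TMM scaling took away (1.36, adjusted p = 0.481, and 1.44, adjusted p = 1.00). Ftl1 ran from 12508 over 20364 to 28980 CPM in blood, far above 2632 to 3554 in neutrophils, 610 to 3357 in monocytes and 5442 to 8300 in skin. Neutrophils and monocytes overlapped for Ftl1 (0.32 ± 0.22, adjusted p = 0.330, and 1.23 ± 0.67, adjusted p = 0.267, as labelled). As labelled, blood against neutrophils did not pass for Ftl1 (1.33 ± 0.61, adjusted p = 0.104) or Fth1 (0.79 ± 0.33, adjusted p = 0.0790). The ratio of Fth1 to Ftl1 counts was 0.711 ± 0.101 in neutrophils (SD, n = 8), 0.735 ± 0.0364 in skin (n = 4), 0.290 ± 0.122 in blood (n = 6) and 0.266 ± 0.0412 in monocytes (n = 7).

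Of the haem breakdown genes, with haemoglobin rows left out, Blvrb was highest and Hmox1 lowest in blood. Blvrb ran from 332 over a median of 781 to 1211 CPM in blood, against 7.84 to 71.5 in neutrophils, 4.45 to 40.9 in monocytes and 69.4 to 101 in skin. On this scale all blood libraries lay above all others. As CPM of all counts, Blvrb ran from 24.4 to 110 in blood and overlapped with neutrophils, at 7.83 to 71.4. In the TMM-scaled fit, blood exceeded neutrophils by 4.45 ± 0.55 (edgeR adjusted p = 6.32e-07). As labelled this difference was 1.16 ± 0.95 and did not pass (edgeR adjusted p = 0.387). Erythroid genes other than haemoglobin summed to 39258 to 55654 CPM in these blood libraries and to at most 258 in the other tissues, and their part in the blood values was not tested. Hmox1 went the other way: it ran from 3.33 over 8.56 to 27.7 CPM in blood, and was at 64.8 to 97.4 in neutrophils, 45.9 to 116 in monocytes and 102 to 175 in skin. The log2 difference of blood from neutrophils was -2.83 ± 0.34 (adjusted p = 3.61e-07). As labelled it was -0.29 ± 0.61 (adjusted p = 0.764), and no pair of tissues passed for Hmox1. Blvra was highest in skin, at 37.8 to 72.1 CPM, where no library overlapped with another tissue, and 2.49 to 12.3 in blood. Neutrophils differed from skin by -1.59 ± 0.29 (adjusted p = 7.92e-05), and by -1.45 ± 0.47 as labelled (adjusted p = 0.0148), a call lost without replicate 1 of skin IVIG or replicate 2 of skin PBS (0.0505 and 0.0520). As labelled, blood and monocytes did not differ from skin for Blvra past the limit (-0.92 ± 0.47, adjusted p = 0.402, and -0.81 ± 0.51, adjusted p = 0.203).

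With haemoglobin rows left out, Slc11a2 was high in skin, at 38.8 to 46.6 CPM, and in blood, at 18.3 to 46.9. It was low in neutrophils (2.08 to 15.8) and monocytes (1.09 to 15.2). Blood and skin overlapped (0.00 ± 0.49, adjusted p = 1.00, and -0.03 ± 0.44, adjusted p = 0.984, as labelled). Blood exceeded neutrophils by 1.84 ± 0.41 (adjusted p = 0.000848), and by 1.69 ± 0.40 as labelled (adjusted p = 0.00527). Slc11a1 was lowest in blood, at 9.55 to 40.4 CPM, with 48.5 to 128 in neutrophils and no overlap between them (-2.06 ± 0.37, adjusted p = 9.39e-05). As labelled that difference did not pass (-0.80 ± 0.39, adjusted p = 0.131). Tfrc overlapped among all 4 tissues, with medians of 44.5 CPM in blood, 96.0 in neutrophils, 34.1 in monocytes and 76.9 in skin.

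The 9 libraries whose markers contradict their label followed their markers more often than their label. Of their 81 member values, 48 lay within the range of the tissue their markers show and 18 within that of their label. Blvrb in the libraries labelled neutrophil that carry blood markers was at 882 and 704 CPM, and in the blood-labelled library with monocyte markers at 12.4. Fth1 lay in neither range in all 9.

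The neutrophil libraries with matching markers varied widely among themselves in 5 members. Tfrc was at 20.1, 38.2 and 24.0 CPM of all counts in replicates 1 and 2 of IVIG and replicate 2 of PBS, and at 126, 85.4, 106, 110 and 121 in the other 5. Blvrb was at 9.92, 13.6 and 7.83 in those 3 and at 44.6 to 71.4 in the others, and Slc11a2 at 2.08 to 3.15 against 12.5 to 15.8. Slc11a1 was reversed, at 100.5 to 128 against 48.4 to 79.0, as was Slc40a1, at 161 to 192 against 85.9 to 151. The erythroid membrane gene Slc4a1 moved with them, at 3.04, 7.48 and 4.45 CPM in the 3 libraries and 54.8 to 95.02 in the 5. So did Alas2, the erythroid haem synthesis enzyme, at 1.61 to 6.19 and 33.4 to 51.8. The early granule gene Mpo was at 101 to 266 and 343 to 764 CPM, and Mmp8, a late granule gene, at 2310 to 2917 and 892 to 1430. The part of red cell precursors or of neutrophil stage in these values was not tested. Both treatments occur among the 3 and among the 5. The titles of the 5 all have the prefix S3, and those of the 3 have S5, S3 and S2, so prefix and level moved together but for 1 library, and the part of the prefix was not tested.

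**Figure D5:**
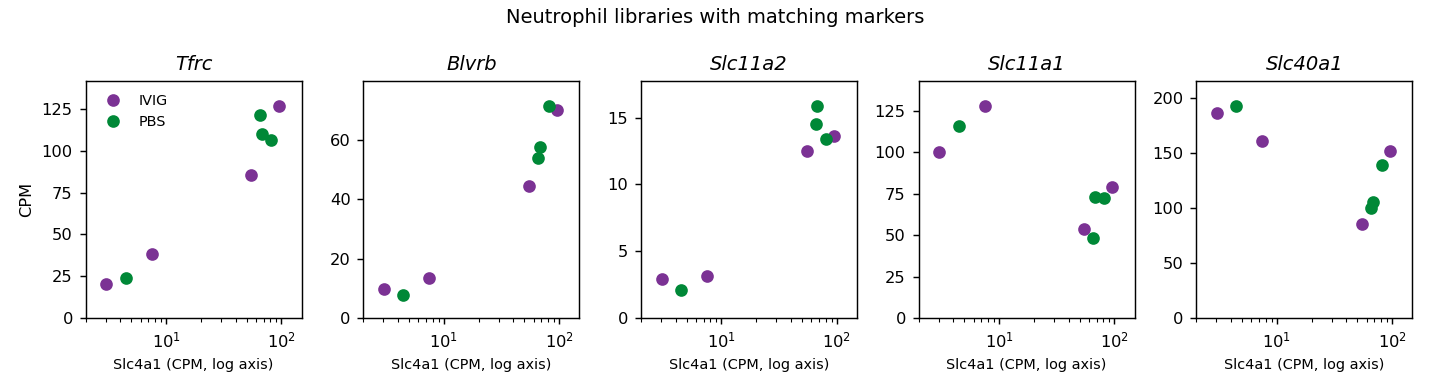
CPM of 5 genes (y axes) against CPM of the erythroid gene Slc4a1 (x axis, log) in the 8 neutrophil libraries with matching markers, coloured by treatment. Tfrc, Blvrb and Slc11a2 are low in the 3 libraries with Slc4a1 at 3.04 to 7.48 CPM, where Slc11a1 is high.

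The comparison of IVIG with PBS asks whether the treatment altered these genes within a tissue. No member passed in any of the 4 tissues, where 0.0% of 11339 genes in blood, 14033 in neutrophils, 14415 in monocytes and 16171 in skin passed in edgeR. At an unadjusted p under 0.05 there were 81, 73, 286 and 157 genes, none of them a member, and DESeq2 called 7, 0, 7 and 3 genes, again no member. The values nearest to a call before adjustment were Slc11a1 in monocytes, 1.03 ± 0.49 on the log2 scale (IVIG over PBS, SE, n = 3 and 5, edgeR adjusted p = 1.00), and Tfrc in blood, 0.98 ± 0.48 (n = 5 and 5, adjusted p = 1.00). Hmox1 was at 0.10 ± 1.04 in blood, 0.06 ± 0.72 in neutrophils, -0.47 ± 0.51 in monocytes and -0.86 ± 1.02 in skin. These groups hold the 9 libraries with markers of another tissue, so a missing call does not show that a gene was unaffected. In blood the SE of Hmox1 was 0.49 among matching libraries.

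Among matching libraries alone no member passed either, although 3 members in blood and 4 in skin had an unadjusted p under 0.05, as did 6.71% and 8.54% of all genes tested there. All genes passed there at 0.0477% in blood, 0.0236% in skin and 0.0% in neutrophils and monocytes. In blood, Hmox1 stood at 3.33, 7.53 and 7.62 CPM with IVIG and at 9.50, 15.3 and 27.7 with PBS, a difference of -1.27 ± 0.49 (n = 3 and 3, edgeR adjusted p = 0.740). With haemoglobin rows kept in, these were 0.244, 0.816 and 0.463 CPM with IVIG and 1.01, 1.22 and 1.85 with PBS. Such levels rest on few counts. In neutrophils Hmox1 was at 67.8, 97.4, 76.4 and 84.0 CPM with IVIG and at 79.8, 73.8, 84.7 and 64.8 with PBS, which overlap (0.06 ± 0.17, adjusted p = 1.00). In skin, 2 libraries with IVIG read 105 and 102 CPM for Hmox1 and 2 with PBS read 175 and 144 (-0.70 ± 0.22, adjusted p = 0.457). These groups are too small to show that levels were alike, and the direction holds only for the treatment names as deposited.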

How the data were processed

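Bulk RNA-seq of 46 mouse libraries was read from a deposited table of 46264 gene symbols. The deposited values are taken to be expected counts, since the table's name calls them length-scaled TPM, and their library totals differ as counts do. Per the submitters' processing notes kallisto 0.46.1 and GRCm38 were used. How the authors summed transcripts to genes is not given in the sources used here. Groups follow the tissue and condition fields and titles. The treatment field disagrees with them and was not used. Estimated counts were rounded and tested in edgeR 4.0.16 (R 4.3.3) by quasi-likelihood, after TMM scaling and filterByExpr at a minimum count of 10. P-values were adjusted over all genes tested (Benjamini-Hochberg, limit 0.05), and those given as adjusted p are edgeR's unless DESeq2 is named. SE is the log2 change divided by the square root of F. The 3 Ics times were fitted together, each tissue's treatments alone, and the tissues in a fit of 34 libraries. CPM per kilobase uses the length of each gene's first listed transcript. A tissue label was called contradicted by haemoglobin above 10% of counts (blood), otherwise Krt5 plus Krt14 above 100 CPM (skin), otherwise S100a8 plus S100a9 above 10000 CPM (neutrophil), otherwise monocyte. Those limits, the members and the gene lists were chosen with earlier results of these data known. All members were named, with up to 4 genes per list by smallest p among those that passed and the 3 closest genes per member. Aco1 was named beside Ireb2 outside this rule. Alternatives were DESeq2 1.42.0, other scaling, no filter, a replicate block, fewer samples, pseudogene rows and leaving out libraries, and, chosen after seeing the data, the title prefix as a term. The procedure was tested on simulated data.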

Additional observations from a re-analysis of the deposited data

Results flagged for a closer look

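In groups of 4 or 5 libraries, 72 pairs of member and group were searched for a library far from the rest of its group (CPM of all counts in tissues, TMM-scaled in Ics), and 11 were found. A library was listed when its gap to the nearest other, divided by the range of its group, passed the critical value of Dixon's test, which by its construction chance passes in about 1 in 20 groups. Members of 1 library are not independent. Of the 11, 9 are libraries whose markers contradict their label. In neutrophil PBS, replicate 1 had Hmox1 at 0.137 and Fth1 at 145 CPM, and in neutrophil IVIG, replicate 5 had Fth1 at 60.5 and Ftl1 at 224 CPM. Both carry blood markers. In blood IVIG, replicate 3, which carries skin markers, had Fth1 at 7867, Tfrc at 155 and Slc11a2 at 46.9 CPM. In blood PBS, replicate 2, also with skin markers, had Slc11a2 at 42.5 CPM, and replicate 1, with neutrophil markers, had Slc40a1 at 109.8 CPM. Within Ics, replicate 2 of 3 h stood above the rest for Blvrb at 17.2 CPM, and replicate 2 of 0 h below the rest for Tfrc at 20.6 CPM. That 0 h library also had the lowest erythroid sum of its group, 109 CPM.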

How the results depend on the processing

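Among 189 member values in Ics under other models, scaling or filters, 181 kept direction and call. The rest were calls of Blvra and Tfrc and, with library totals alone, the sign of the uncalled Fth1 value from 3 h to 6 h (0.03). Leaving out single libraries gave 7690 to 8223 genes at 3 h, 8511 to 9220 at 6 h and 5526 to 6136 from 3 h to 6 h. With library totals alone, the median of all genes shifted by -0.25 at 3 h and -0.16 at 6 h, and genes that rose and fell numbered 2693 and 6351 at 3 h (4034 and 4129 with TMM), 3455 and 5785 at 6 h (4439 and 4560) and 3904 and 2427 from 3 h to 6 h (3067 and 3050). The other members kept their signs. The title numbers m1 to m4 were not taken as pairs: same-numbered deviations correlated at 0.0829 to 0.242, and 10 of 12 pairs exceeded 0.1. As a hint from the data, 12 of 12 libraries were closest to one of their own number. The replicate block gave 8297, 9151 and 6354 calls, and changed no member's call.

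For IVIG against PBS, single omissions left 0 calls in each tissue. DESeq2 called 7 genes in blood, 7 in monocytes and 3 in skin, library totals alone 1 in monocytes, and matching libraries 5 in blood and 4 in skin. None was a member. The cause was not tested. The title prefix as a term, not possible in skin, also left 0 calls in blood, neutrophils and monocytes. Of 216 member values there 18 changed sign, and 50 of 306 under single omissions, none past the limit.

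Among tissues as labelled, 9517 genes differed, 8674 to 10666 under single omissions, 4353 with library totals alone, where the median shift reached -0.94 for blood against monocytes, and 14819 in matching libraries. In the latter, Blvra in blood against neutrophils turned to -0.81 (from 0.53, adjusted p = 0.0275) and Ftl1 in blood against skin to 2.09 (from -0.33, adjusted p = 5.02e-06). Neither had passed as labelled. The title prefix as a term gave 8441 genes as labelled and 13251 in matching libraries, where those values were -0.86 (adjusted p = 0.0212) and 1.94 (adjusted p = 0.000789).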
